A study of Homo sapiens with 6 samples.

Results

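KAT5 and 8 other histone acetyltransferase genes were described across the 6 CUT&Tag peak lists of the series. The set held KAT5, KAT2A, KAT2B, KAT6A, KAT6B, KAT7, KAT8, EP300 and CREBBP, 9 of 19970 protein-coding genes that the RefSeq table places on the autosomes and X. A peak, meaning 1 entry of a deposited list, was assigned to a gene when it shared at least 1 bp with the gene span extended by 5 kb on both sides. In CUT&Tag an antibody brings a transposase (Tn5) to a chromatin protein or mark, and the DNA it cuts there is read out. The cells were MDA-MB-231, a line derived from a breast cancer without hormone receptors or HER2. NONO, an RNA- and DNA-binding nuclear protein, was profiled in NC cells (the negative control, labelled WT for genotype) and in NONO-KD cells (NONO knockdown). H3T11ph, phosphorylated threonine 11 of histone H3, and H3K27ac, acetylated lysine 27 of histone H3, were profiled in NC cells and in PKM2-KD cells (knockdown of PKM2, a pyruvate kinase isoform that also acts as a kinase of H3T11). All libraries came from 1 cell line, each group held 1 library, and the reagent of the knockdowns is not named for these libraries, although NC is the study's name for its siRNA control. No test between conditions was therefore possible, the differences below describe these libraries, and intervals cover counting error only.

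Histone acetyltransferases move an acetyl group from acetyl-CoA to lysines of histones, which marks active promoters and enhancers. EP300 and CREBBP are the main writers of H3K27ac in mammalian cells, while KAT5, also known as TIP60, is the catalytic subunit of the TIP60/NuA4 complex, which acetylates H4 and the variant H2A.Z and takes part in the response to DNA breaks. The study concerned TIP60 in relation to H3K27ac and H3T11ph, and the peaks at its own gene and at the genes of related enzymes were compared here. A peak at a gene is a measure of chromatin at that gene and not of the level or activity of its product.

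Sequence at the 5′ ends of KAT5, EP300 and CREBBP is shown because the peaks described below begin, end or lie there. It is RefSeq sequence of GRCh38.p14, 5′ to 3′ on the strand of the gene. The KAT5 stretch is chr11:65712002-65712047, the end of the shared NONO and H3K27ac interval, and capitals mark the 37 bases inside the H3K27ac peak of NC. The NONO peak of NC and the H3K27ac peak of PKM2-KD cover all 46 bases. The EP300 stretch is chr22:41092342-41092591, and capitals mark that all 250 bases lie inside the H3K27ac peak of NC, as they also lie inside that of PKM2-KD. The CREBBP stretch is chr16:3880714-3880963 on the minus strand, and capitals mark the 144 bases inside the H3K27ac peak of PKM2-KD, where NC had none.
KAT5: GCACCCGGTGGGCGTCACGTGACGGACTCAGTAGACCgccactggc
EP300: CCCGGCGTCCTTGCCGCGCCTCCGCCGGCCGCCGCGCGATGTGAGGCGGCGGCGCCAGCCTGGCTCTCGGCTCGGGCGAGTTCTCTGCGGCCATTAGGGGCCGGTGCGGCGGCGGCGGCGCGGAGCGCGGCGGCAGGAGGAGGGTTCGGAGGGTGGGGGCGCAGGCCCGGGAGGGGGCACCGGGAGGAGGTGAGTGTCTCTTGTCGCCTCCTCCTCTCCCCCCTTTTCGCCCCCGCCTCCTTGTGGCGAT
CREBBP: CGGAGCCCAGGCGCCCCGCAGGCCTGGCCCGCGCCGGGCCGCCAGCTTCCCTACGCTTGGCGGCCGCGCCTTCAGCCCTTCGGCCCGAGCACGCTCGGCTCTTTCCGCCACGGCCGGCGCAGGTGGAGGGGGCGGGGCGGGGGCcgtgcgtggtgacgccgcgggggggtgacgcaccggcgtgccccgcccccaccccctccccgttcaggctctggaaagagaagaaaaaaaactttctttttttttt
The 250 bases before the RefSeq transcript start of KAT5 at 65712252, of which the stretch above is the first part, held 66.4% G and C and 19 CpG. Medians over all 35116 promoter windows of this length were 58.0% and 11. The CpG count was 35 at EP300, 33 at KAT2B, 14 at KAT7 and 11 at KAT2A. It was 46 and 31 in the 2 windows of CREBBP, the latter printed above, and 13 to 31 in the 3 windows of KAT6B. The KAT5 window held 2 copies of the ETS core CCGGAA, counted on both strands, and the KAT7 window held 1. Of all windows, 14.5% held at least 1. The octamer ATGCAAAT, the motif from which NONO takes its name as a non-POU octamer-binding protein, was in none of the 10 windows of the 7 genes in the promoter table, against 1.63% of all windows. The H3T11ph peak at KAT5 ends just before the first base shown.

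KAT5 lies on chromosome 11 from 65712018 to 65719604 on the plus strand (GRCh38). KAT2A, a subunit of SAGA and ATAC that acetylates H3K9, lies on chromosome 17 from 42113111 to 42121367, and its paralogue KAT2B lies on chromosome 3 from 20040446 to 20154404. Among the MYST enzymes, to which KAT5 belongs, KAT6A is on chromosome 8 from 41929479 to 42051987 and KAT6B on chromosome 10 from 74824936 to 75032624. KAT7, the writer of H3K14ac, is on chromosome 17 from 49788681 to 49835026. KAT8, the writer of H4K16ac, is on chromosome 16 from 31117664 to 31131393. EP300 is on chromosome 22 from 41092592 to 41180077, and CREBBP on chromosome 16 from 3725054 to 3880713. With the extension, the windows ran from 17.6 kb at KAT5 to 218 kb at KAT6B, so counts are also given per 100 kb. The strand of 7 genes was known. For KAT6A and KAT8 it was not in the table used, and either end of the gene was taken as the 5′ end. Over all 19970 genes it was known for 15811. The shares of all genes at the 5′ end therefore count either end for the rest.

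The lists held between 36583 peaks (H3T11ph PKM2-KD) and 572970 peaks (H3K27ac NC). The number of fragments stacked at each summit (the pileup) and the background of the peak were recovered from the deposited fold and −log10 p. The implied depth was 2.84 to 3.42 fragments per kb for NONO and H3T11ph and 7.46 and 7.47 for H3K27ac. The NONO NC and H3K27ac NC lists were called in another form than the other 4, since 94.6% of the former had 1 width (269 bp) and 79.3% of the latter another (112 bp), the narrowest in each, against 1.19% to 2.05% elsewhere. Differences between NC and knockdown in calling and in the cells cannot be told apart for NONO and H3K27ac. The H3T11ph lists had 1 form.

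At KAT5, peaks of all 3 antigens met at the 5′ end in NC. The H3T11ph NC list held 1 peak at KAT5, from 65711867 to 65711995, with its summit 38 bp before the gene span. It was 129 bp wide, 1.16 times the narrowest peak of its list, with a fold of 26.8 over background. Its pileup was 63 fragments (exact 95% Poisson interval 48.4 to 80.6) on a background of 1.39. This narrow peak lay wholly within a NONO peak and within an H3K27ac peak of the same cells. The NONO NC peak ran from 65711722 to 65712097 (376 bp) and held 29 fragments (19.4 to 41.6) at a fold of 6.71. The NONO and H3T11ph summits were 8 bp apart. The H3K27ac NC peak ran from 65711782 to 65712038 (257 bp) and held 31 fragments (21.1 to 44.0). Its summit lay 125 bp from that of H3T11ph.

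KAT5 was the only 1 of the 9 genes with a base shared by NONO, H3T11ph and H3K27ac peaks in NC. Over all protein-coding genes, 4.12% had such a base within 5 kb of the span and 1.46% had one on an H3T11ph peak within 1 kb of the 5′ end. At the other 8 genes, 2 NONO NC peaks met an H3T11ph NC peak, both at KAT6B, and 2 H3T11ph NC peaks met an H3K27ac NC peak, at KAT6A and EP300.

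**Figure D1:**
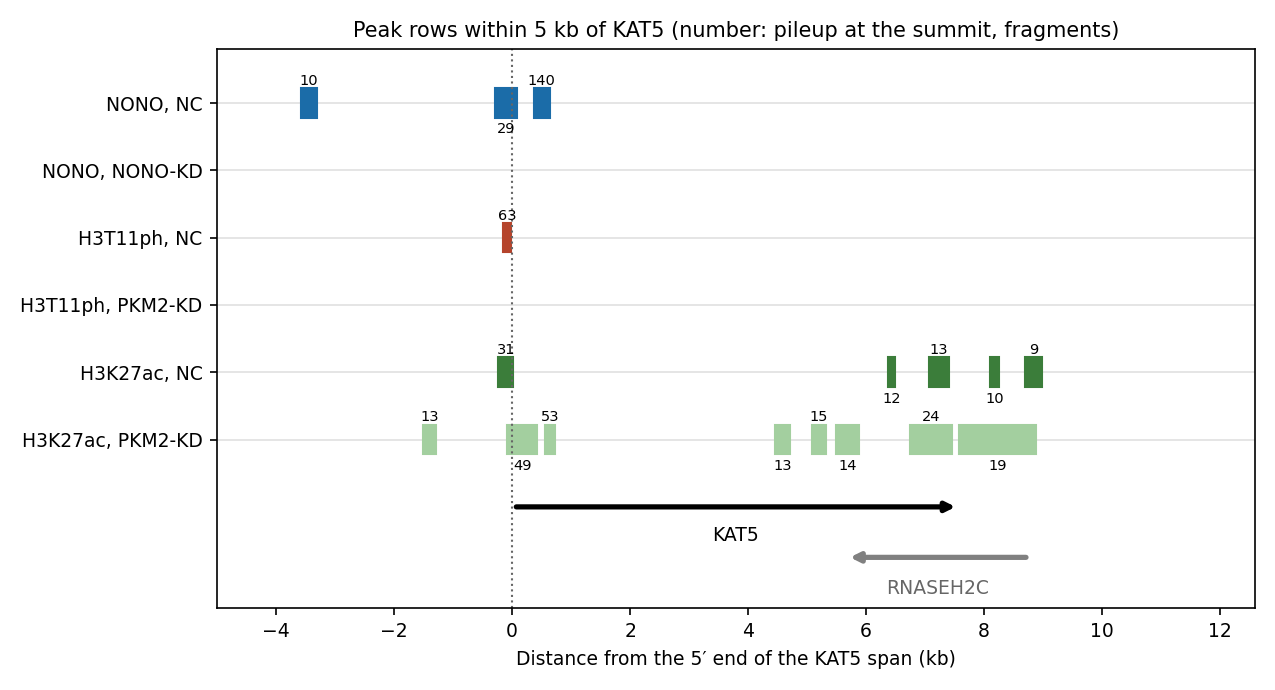
Peaks within 5 kb of KAT5 in the 6 libraries, placed by distance from the 5′ end of the gene span (kb), with the pileup at the summit in fragments beside each. NONO, H3T11ph and H3K27ac peaks of NC overlap just before the 5′ end, the NONO-KD and H3T11ph PKM2-KD tracks are empty, and H3K27ac peaks of PKM2-KD run on into RNASEH2C.

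Neither knockdown list of NONO or H3T11ph held a peak at KAT5. NONO peaks at KAT5 numbered 3 in NC (exact 95% interval 0.619 to 8.77) and 0 in NONO-KD (0 to 3.69). H3T11ph peaks numbered 1 in NC (0.0253 to 5.57) and 0 in PKM2-KD (0 to 3.69). These count intervals overlap. When the NONO NC list was cut by −log10 q to the length of the NONO-KD list, 0 of the 3 NONO NC peaks at KAT5 were kept. An absent peak means only that the site did not pass the threshold of the list. In H3T11ph PKM2-KD, peaks with a background within 10% of that of the KAT5 peak had pileups of 7 fragments or more, against the 63 fragments recorded in NC.

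A peak of this kind was seldom found again anywhere in the H3T11ph pair. Among 5905 H3T11ph NC peaks with a pileup within 25% of that at KAT5 (47.2 to 78.8 fragments) and under 2 times the narrowest width, 5.18% were overlapped in PKM2-KD. Of the 507 that lay within 1 kb of a 5′ end, 16.6% were. Most H3T11ph peaks of that height and place were therefore not called in PKM2-KD. A 5′-end peak in NC alone was found at 9.91% of all genes and a 5′-end peak in PKM2-KD alone at 9.75%. Among the 9 genes KAT5 was the one of the first kind and KAT7 the one of the second. The KAT7 peak lay nearer to the 5′ end of FAM117A (49789110), which overlaps KAT7 and is read the other way.

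The other 2 NONO NC peaks at KAT5 differed in height and background. One lay 3396 bp before the span and held 10 fragments. The other had its summit 506 bp inside the gene and held 140 fragments, the highest pileup at KAT5, on a background of 21.5, which is 23.9 times the commonest background of the list. An H3K27ac PKM2-KD peak shared 75 bp with this NONO peak, with its summit 196 bp away. It also stood on a raised background, with 53 fragments over 29.7 and a fold of 1.76. The background of the NONO peak that met the H3T11ph peak was 3.86 times the commonest. At the same site the background was 3.73 times the commonest of the list in H3T11ph NC. It was 3.61 times in H3K27ac NC and 3.99 times in H3K27ac PKM2-KD. The part of raised background in these peaks was not tested.

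H3K27ac went the other way at KAT5, with more and wider peaks in PKM2-KD. NC had 5 peaks that covered 1153 bp and PKM2-KD had 8 that covered 3774 bp, a ratio of 3.27. These lists differ in form, and calling and knockdown cannot be told apart here. At the 5′ end the 257 bp peak of NC met a 520 bp peak of PKM2-KD, from 65711927 to 65712446, which held 49 fragments (36.3 to 64.8). Per unit of depth, the pileup of PKM2-KD was 1.58 times that of NC (exact 95% interval 0.987 to 2.56), and the interval includes 1. Over 8329 genes with overlapping 5′-end peaks in both lists the median ratio was 1.13 (quartiles 0.807 and 1.54).

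The widest H3K27ac peaks of KAT5 were at its other end. They measured 348 bp in NC and 1300 bp (11.5 times the narrowest) in PKM2-KD, and the latter ran from 65719600 to 65720899. This end overlaps RNASEH2C, which encodes a subunit of ribonuclease H2 and is read from 65720798 towards KAT5, so these peaks cannot be assigned to one gene. Peaks that met the RNASEH2C span covered 896 bp in NC and 2394 bp in PKM2-KD. The remaining peaks of KAT5 covered 257 bp and 1380 bp, a ratio of 5.37, so the length was higher in PKM2-KD with and without those peaks.

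NONO peaks were then counted across the 9 genes. In NC, 8 of 9 had a NONO peak (all genes 77.1%) and 5 of 9 had one within 1 kb of the 5′ end (all genes 21.7%). In NONO-KD, 6 of 9 had a peak (51.5%) and 1 of 9 had one at the 5′ end (7.42%). None of the 42 NONO NC peaks at these genes overlapped a NONO-KD peak, where 2.01% of all NONO NC peaks did. A NONO peak in NC and none in NONO-KD was found at KAT5 and KAT7 (all genes 32.4%), and the reverse at none of the 9 (6.76%). At the 5′ end the peak was in NC only at the 5 genes KAT5, KAT6B, KAT7, KAT8 and CREBBP (19.0%) and in NONO-KD only at KAT6A (4.74%). NONO peaks covered less length in NONO-KD at 8 genes (75.4%) and more at none (8.45%). The narrowest peak was 269 bp in NONO NC and 98 bp in NONO-KD, so equal numbers of peaks can still differ in length. KAT6A had 4 peaks in each list, which covered 1076 bp in NC and 502 bp in NONO-KD. The part of list form in this direction was not tested. A peak of 2 or more narrowest widths was at EP300 alone in NC (566 bp, 4.74% of all genes) and at none in NONO-KD (4.76%).

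NONO peaks stood at different places in different genes. KAT7 had 7 in NC and 0 in NONO-KD, and the closest to its 5′ end lay 523 bp inside the gene with 54 fragments. That peak was nearer to the 5′ end of FAM117A. CREBBP had 9 and 3, with 1 of the NC peaks 885 bp before the 5′ end (95 fragments). KAT8 had 3 and 1, and an NC peak of 38 fragments lay 101 bp from a gene end. KAT6B had 10 and 1, KAT6A 4 and 4, KAT2B 3 and 1 and EP300 3 and 2. The 3 NC peaks of EP300 all lay inside the gene, between 32802 bp and 81000 bp from the 5′ end. The one 5′-end peak of NONO-KD was at KAT6A (28 fragments, 165 bp). KAT2A had no NONO peak in either library.

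H3T11ph peaks were found at 5 of 9 genes in NC (all genes 56.6%) and at 6 of 9 in PKM2-KD (53.2%). Peaks within 1 kb of the 5′ end were at 3 of 9 in both, namely KAT5, KAT6A and EP300 in NC and KAT6A, KAT7 and EP300 in PKM2-KD (14.9% and 14.7% of all genes). In both libraries the total was 12 peaks. Only 2 of the 12 NC peaks were found again (16.7%, against 5.75% of all H3T11ph NC peaks), 1 at KAT6B and 1 at EP300. Genes other than KAT5 therefore also differed peak by peak between the libraries. A peak was in NC only at KAT5 (all genes 19.3%) and in PKM2-KD only at KAT2B and KAT7 (15.9%). H3T11ph peaks covered more length in PKM2-KD at 3 genes, KAT2B, KAT7 and CREBBP (30.4%), and less at 4 (42.0%).

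At EP300 the H3T11ph peak before the 5′ end was lower in PKM2-KD. In NC it was 162 bp wide with a summit 819 bp before the gene and held 57 fragments (43.2 to 73.9) on a background of 2.01. In PKM2-KD the overlapping peak shared 21 bp with it, held 32 fragments (21.9 to 45.2) and stood on a background of 13.2, which is 42.5 times the commonest of its list. Per unit of depth the ratio was 0.550 (exact 95% interval 0.345 to 0.862). Of 617 genes with such a pair, 19.6% had a lower ratio, and the median was 1.02.

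KAT6B was the one gene with a wide H3T11ph peak in each library, against 9.46% and 9.47% of all genes with a peak of 2 or more narrowest widths. The NC peak ran over 524 bp and held 104 fragments on a background of 37.9, at a fold of 2.70. The PKM2-KD peak ran over 319 bp and held 226 fragments on a background of 36.9, at a fold of 5.99. The NONO NC peaks that met it held 159 and 243 fragments on backgrounds of 21.1 and 102. The site lies before an alternative start at 74826600, and its background was raised in all of these lists. Whether the raised background accounts for the peaks was not tested.

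H3T11ph at the remaining genes was mostly away from the 5′ end. KAT7 had 0 peaks in NC and 3 in PKM2-KD, of which 1 lay 571 bp inside the gene and held 30 fragments. That peak was nearer to the 5′ end of FAM117A and cannot be assigned to KAT7 alone. KAT6A had 2 and 2, among them an NC peak 51 bp outside a gene end with 12 fragments, which met an H3K27ac peak of NC and the NONO-KD peak. Its PKM2-KD peak near the same end lay 927 bp inside the gene, held 57 fragments at a fold of 33.0 and did not overlap the NC peak. CREBBP had 3 and 3, none shared, and its nearest NC peak was 1514 bp before the 5′ end. KAT2B had 0 and 1. KAT2A and KAT8 had none, and KAT2A had no peak in any of the 4 NONO and H3T11ph lists.

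**Figure D2:**
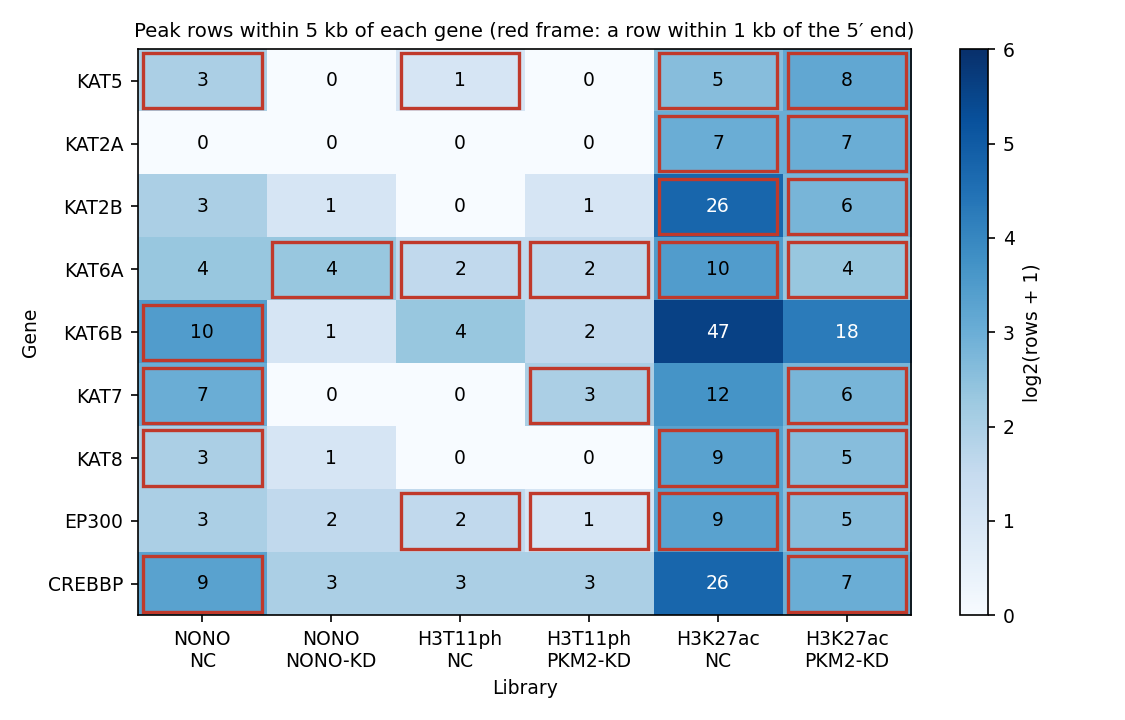
Number of peaks within 5 kb of each of the 9 genes in each library, shaded by log2(peaks + 1), with a red frame where a peak lay within 1 kb of the 5′ end (either gene end for KAT6A and KAT8). KAT5 has framed NONO and H3T11ph cells in NC and 0 peaks of both in the knockdowns, and KAT7 has 0 H3T11ph peaks in NC and 3 in PKM2-KD.

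The whole 5′-end arrangement of KAT5, with NONO and H3T11ph in NC only and H3K27ac in both libraries, was shared by none of the other 8 genes and was found at 371 genes (1.86%). KAT8 had NONO in NC only and H3K27ac in both, without H3T11ph. EP300 had H3T11ph and H3K27ac in all their libraries, without NONO. KAT2A and KAT2B had H3K27ac alone.

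H3K27ac peaks were at all 9 genes in NC and in PKM2-KD (97.4% and 89.6% of all genes), so none had one in NC only (8.79%) or in PKM2-KD only (0.936%). Within 1 kb of the 5′ end they were at 6 of 9 in NC and at 8 of 9 in PKM2-KD (68.4% and 59.4%). KAT7 and CREBBP had a 5′-end peak in PKM2-KD only (all genes 9.02%), none had one in NC only (18.0%), and KAT6B had none in either library. The KAT7 peak was 866 bp wide and held 66 fragments on a background of 18.2. It also lay over the 5′ end of FAM117A, which is read the other way. The CREBBP peak was 300 bp wide and held 14 fragments.

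Wide H3K27ac peaks, of 2 or more narrowest widths, were at 8 of 9 genes in NC and 9 of 9 in PKM2-KD (68.2% and 72.6%). The widest in PKM2-KD after that of KAT5 was at the 5′ end of EP300 (1162 bp, 33 fragments), followed by KAT8 (972 bp, 15 fragments) and KAT7. In NC, the EP300 peak at the start of the gene was 568 bp wide. It held 21 fragments, and a 139 bp peak beside it held 32. The overlapping pair of EP300 had a pileup ratio of 1.03 (0.614 to 1.73). The ratios of KAT2B (0.799), KAT6A (1.44) and KAT8 (0.749) had intervals that included 1 as well.

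Covered length differed in direction among the genes. In PKM2-KD it was higher than in NC at 6 genes and lower at 3, while over all genes it was higher at 34.9% and lower at 63.5%, with a median ratio of 0.818. After KAT5 at 3.27, which 97.5% of genes fell below, the ratio was 1.73 at KAT2A, 1.29 at KAT8, 1.24 at KAT7, 1.23 at EP300 and 1.01 at KAT6A. It was 0.546 at KAT6B, 0.359 at CREBBP and 0.289 at KAT2B. The EP300 and CREBBP paralogues thus had ratios on opposite sides of 1, as did KAT2A and KAT2B. The neighbours DHX58, HSPB9 and RAB5C also reach into the KAT2A window. All H3K27ac NC peaks of KAT2A had their summits outside its span. Its widest peak in each library (624 bp in NC, 590 bp in PKM2-KD) met the DHX58 span. These peaks and their ratio cannot be assigned to KAT2A alone. BCKDK and PRSS8 reach into the KAT8 window, so the ratio of KAT8 cannot be assigned to it alone either. The 3 lower genes had 18 peaks or fewer in PKM2-KD against 26 to 47 in NC, and 79.5% of all NC peaks at the 9 genes had the narrowest width.

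**Figure D3:**
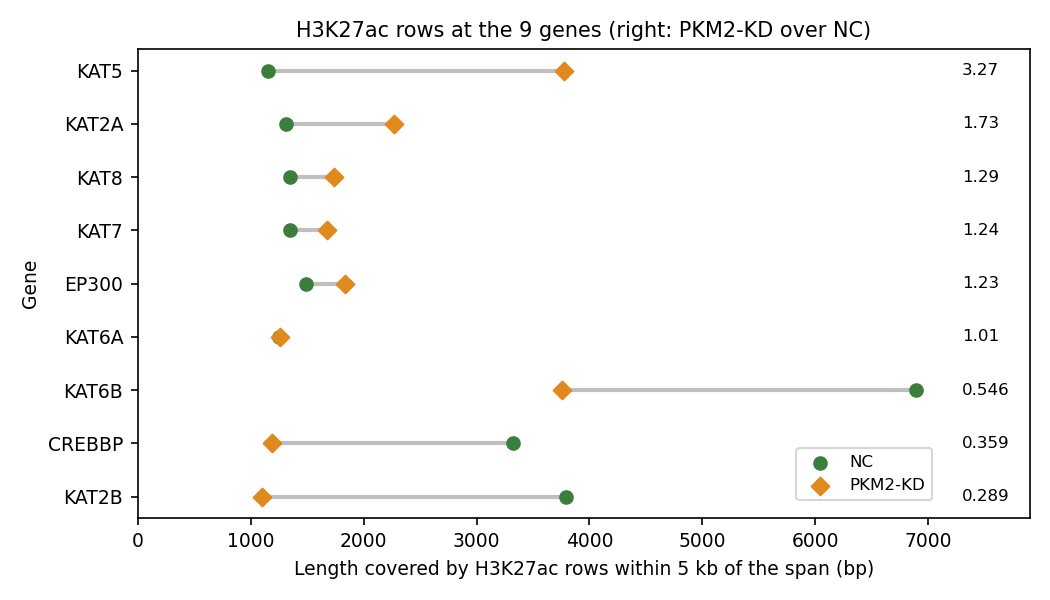
Length covered by H3K27ac peaks within 5 kb of each gene span (bp) in NC (circles) and PKM2-KD (diamonds), with the ratio at the right. KAT5 has 1153 bp in NC and 3774 bp in PKM2-KD, 5 more genes are higher in PKM2-KD, and KAT6B, CREBBP and KAT2B are lower.

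Per length of window, KAT5 ranked 1 of the 9 genes in NONO NC (17.1 peaks per 100 kb), in H3T11ph NC (5.69) and in H3K27ac PKM2-KD (45.5), and 3 in H3K27ac NC (28.4). The medians over all genes were 3.79, 1.03, 9.43 and 24.1. In NONO-KD and H3T11ph PKM2-KD it stood at 0 with KAT2A and others. In no list did a gene differ from the next in the order beyond counting error. The density of KAT5 differed from that of 6 genes in H3K27ac PKM2-KD and from that of KAT6A in H3K27ac NC, with intervals of the ratio that left out 1. In that list of PKM2-KD, KAT5 had 10.8 times the density of CREBBP (exact 95% interval 3.41 to 34.9), 8.87 times that of EP300 (2.56 to 34.5) and 1.19 times that of KAT2A (0.376 to 3.84). With peaks up to 500 bp apart joined, KAT5 kept 4 peaks, the ratios fell to 5.38 for CREBBP (1.16 to 21.2) and 7.39 for EP300 (1.25 to 50.5), and KAT5 differed from 3 genes. Without its 3 peaks that met RNASEH2C it differed from 4. In the NONO and H3T11ph lists its interval included 1 against all 8 genes. These intervals were not adjusted for the number of pairs. The 6 genes that KAT5 differed from in H3K27ac PKM2-KD had windows of 56.3 to 218 kb. The windows of KAT5, KAT2A and KAT8 were 17.6, 18.3 and 23.7 kb, and the 5 kb flanks make up more of a short window. The part of window length in the order was not tested.

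**Figure D4:**
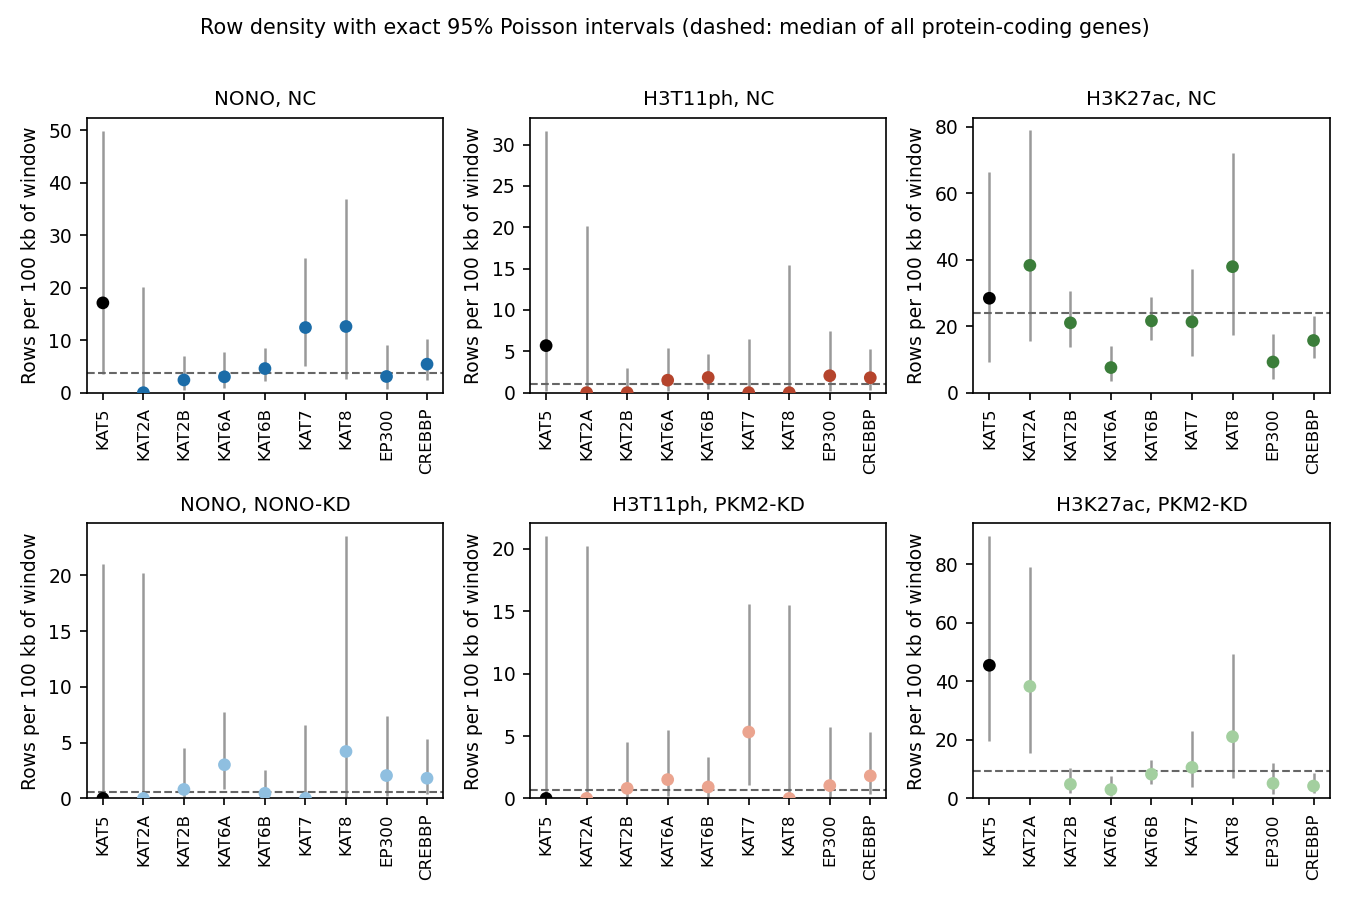
Peaks per 100 kb of window at the 9 genes in each library, with exact 95% Poisson intervals, KAT5 in black and the median of all protein-coding genes dashed. KAT5 has the highest point in NONO NC, H3T11ph NC and H3K27ac PKM2-KD, with intervals that overlap those of all the other genes in the first pair of these.

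Pileups of single peaks set KAT5 among the other genes at their 5′ ends. The H3T11ph NC pileups were 63 fragments at KAT5, 57 at EP300 and 12 at KAT6A. The intervals of KAT5 and EP300 overlap, while that of KAT6A (6.20 to 21.0) lies below both. In H3K27ac NC the 5′-end peak of KAT5 held 31 fragments, and the highest at EP300, KAT2A, KAT2B, KAT8 and KAT6A held 32, 20, 20, 23 and 16 (either gene end for KAT8 and KAT6A). The KAT8 peak of 23 fragments lay inside the span of the neighbour PRSS8, and the highest at the other end of KAT8 held 20. Peaks with a recovered background of 10 fragments or more numbered 8 over the whole windows of the 9 genes, of which 2 were at KAT5, 4 at KAT6B, 1 at KAT7 and 1 at EP300. They were 3 of 32 peaks in NONO NC (3.50% of all peaks of the list), 1 of 12 in H3T11ph NC (2.16%), 2 of 12 in H3T11ph PKM2-KD (2.54%), 2 of 66 in H3K27ac PKM2-KD (1.73%) and none in the other lists.

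**Figure D5:**
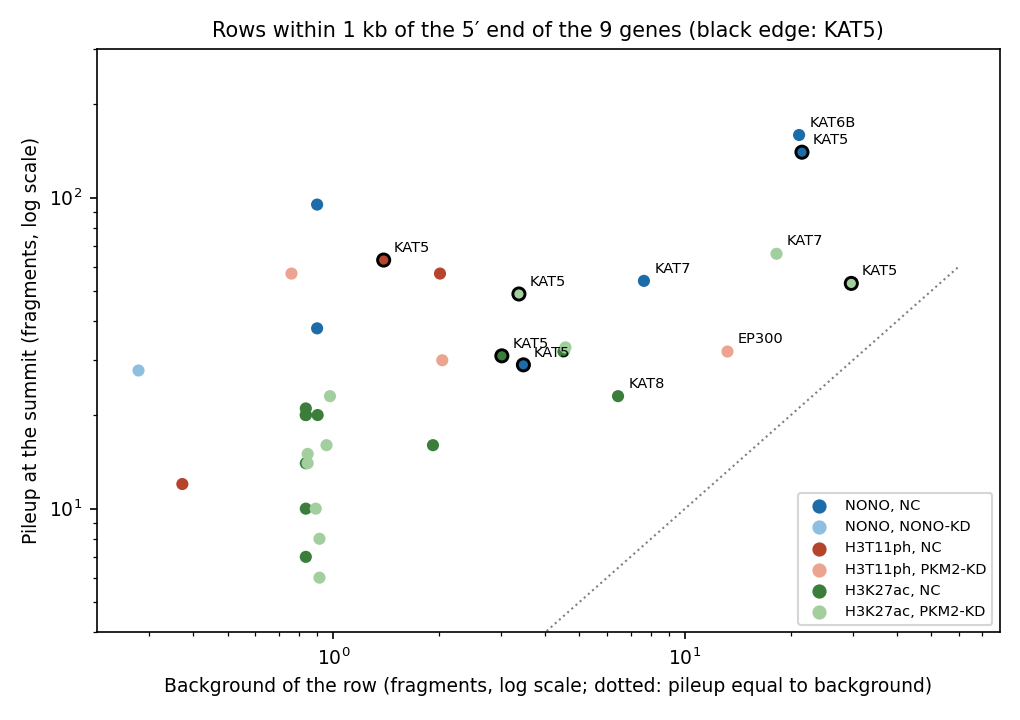
Pileup at the summit against the background of the peak (fragments, log scales) for peaks within 1 kb of the 5′ end of the 9 genes, coloured by library, with KAT5 edged in black. The H3T11ph peak of KAT5 has 63 fragments on 1.39, which is 3.73 times the commonest background of its list. A NONO NC peak of KAT5, one of KAT6B and an H3K27ac PKM2-KD peak of KAT5 stand on backgrounds above 20.

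The genes most like KAT5 were sought over the covered length within 5 kb of the 5′ end in the 6 libraries, as the sum of absolute differences, each divided by the mean of that list. PSMB9, a subunit of the immunoproteasome, had the smallest sum (1.08), followed by FBXW9, an F-box protein (1.21), and TAP1, a subunit of the antigen peptide transporter (1.21). The median sum over all genes was 9.05. PSMB9 and TAP1 are adjacent genes, so their windows overlap. All 3 had no NONO-KD or H3T11ph PKM2-KD peak there, as KAT5 had none, and H3T11ph NC peaks that covered 123 bp at PSMB9 against 129 bp at KAT5. The genes were chosen on these same lengths, so this likeness follows from the choice. Of the other acetyltransferases CREBBP was the most like KAT5 (5.11, with 96.7% of genes less like it) and KAT6B the least (18.6). CREBBP nevertheless had no H3T11ph or H3K27ac peak of NC within 1 kb of its 5′ end. An H3T11ph PKM2-KD peak of CREBBP with 36 fragments began 5021 bp inside the gene, just outside the window used.

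Genes that encode partners of these enzymes were listed apart, as 5 lists of 77 genes, all of which were in the table. Of 17 TIP60/NuA4 subunit genes, 3 had an H3T11ph peak at the 5′ end in NC and 8 in PKM2-KD (14.9% and 14.7% of all genes), and all 17 had an H3K27ac peak there in NC and 16 in PKM2-KD (68.4% and 59.4%). The 3 were MORF4L2, which carries an MRG domain (51 fragments), RUVBL2, an AAA+ ATPase (46 fragments), and YEATS4, which reads acylated lysine (4 fragments). The strand of MORF4L2 was not known, so either gene end was used for it. The RUVBL2 peak was overlapped in PKM2-KD and the others were not. NONO peaks were at the 5′ end of 4 of these 17 genes in NC and 2 in NONO-KD (21.7% and 7.42% of all genes).

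The other lists are read against the same shares of all genes, 14.9% in NC and 14.7% in PKM2-KD. Of 17 SAGA and ATAC genes, 2 had a 5′-end H3T11ph peak in NC (TADA1, 71 fragments, and SUPT3H, 30 fragments) and 2 in PKM2-KD. Of 16 partners of the MYST enzymes, 5 had one in NC and 4 in PKM2-KD, and those of MSL2 (103 fragments, 439 bp) and ING4 (21 fragments) were overlapped in PKM2-KD. Of 9 further acetyltransferases, 1 had one in NC (KAT14, the acetyltransferase of ATAC, 45 fragments) and 3 in PKM2-KD. Of 18 deacetylases, which remove the acetyl group, 6 had one in NC and 5 in PKM2-KD, among them SIRT5 (51 fragments), HDAC11 (50) and HDAC7 (52) in NC. SUPT3H and JADE1 had a base shared by NONO, H3T11ph and H3K27ac peaks at the 5′ end in NC, as KAT5 and 1.46% of all genes had.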

How the data were processed

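CUT&Tag libraries of NONO, H3T11ph and H3K27ac from MDA-MB-231 cells, 1 per group, were grouped by their titles. For each library the authors deposited 1 narrowPeak list on hg38. The deposited score repeats −log10 q, multiplied by 10 and cut to a whole number. The fold, a ratio of summit pileup to background, and the −log10 p and −log10 q values are the authors'. Whether that background came from the same library or from a control library is not known. The submitters' processing notes name FastQC 0.11.9, cutadapt 1.18, SAMtools 1.3.1, MACS2 2.1.1.20160309 and DESeq2. The aligner, duplicate handling and any control library are not given in the sources used here, and the lists hold no read totals.

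Peaks were counted by overlap of at least 1 bp with RefSeq spans (GRCh38.p14) extended by 5 kb, and within 1 kb of the 5′ end, with Python 3.11.15, pandas 2.3.3 and scipy 1.17.1. Whole pileups were recovered from fold and −log10 p where −log10 p was below 200, with a tolerance of 0.002, and 99.75% to 100.00% of the rows tried were matched, against 0.0500% to 0.350% after the fold was changed by 1%. In H3K27ac NC the pileup was first multiplied by 0.521, and pileups are given before this factor. Recovery and overlap counts were tested on simulated data. Depth in fragments per kb was taken from the commonest background of each list over its narrowest peak width, which stands in for the fragment length. Counts and pileups have exact 95% Poisson intervals and ratios of counts have exact intervals. PCR copies are not independent molecules, so intervals cover counting error only. The 9 members, the partner lists and the rule for the 3 genes most like KAT5 were chosen with earlier results of these data known. Named partners are those with an H3T11ph NC peak within 1 kb of the 5′ end, at most 5 per list by fold. RNASEH2C and FAM117A are named as neighbours that overlap a gene span. DHX58, HSPB9 and RAB5C are named as neighbours that reach into the KAT2A window, and BCKDK and PRSS8 into the KAT8 window. The windows of 5 of the 9 genes met 9 neighbouring genes in all.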

Additional observations from a re-analysis of the deposited data

How the results depend on the processing

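No paired analysis was possible because a group was a single library, so no model could be fitted. Of the recomputed values, 98 stayed within 1.5 times the reported one and 24 moved, a rank counting as moved by any change. Some of the 98 could not have moved and are no check. KAT5 counts and widths of 0 in NONO-KD and H3T11ph PKM2-KD stay 0 under all of these settings. The cut to equal list lengths leaves the shorter list of each pair, that of the knockdown, unchanged. With only peaks of at least 2 narrowest widths, KAT5 had 0 NONO NC, 0 H3T11ph NC and 3 H3K27ac NC peaks, the genes with a peak numbered 1, 0, 1 and 1 in NONO NC, NONO-KD, H3T11ph NC and H3T11ph PKM2-KD, and 0 had a 5′-end peak in any of these 4 lists. At equal list lengths KAT5 had 0 NONO NC peaks (the last NONO NC peak kept had a −log10 q of 68.3) and 3 H3K27ac NC peaks, and 3 genes had a 5′-end NONO NC peak. At a −log10 q of at least 5, KAT5 had 1 H3K27ac NC peak. Without the extension it had 0 H3T11ph and 3 H3K27ac NC peaks. Within 2.5 kb of the 5′ end, 5 genes had an H3T11ph NC peak. With peaks up to 500 bp apart joined, KAT5 had 4 H3K27ac PKM2-KD peaks, and its widest measured 931 bp in NONO NC, 877 bp in H3K27ac NC and 2131 bp in H3K27ac PKM2-KD. By covered percent KAT5 ranked 2 in H3K27ac NC. In alternatives chosen after seeing the data, KAT5 differed in H3K27ac PKM2-KD density from 3 genes with peaks joined and from 4 without its peaks on RNASEH2C, against 6 as deposited. The cause of these shifts was not tested. The lowest pileup called at the commonest background was 4 to 6 fragments over the lists. Lists with 1 library a group cannot show whether a peak seen once would be seen again in another library of the same cells.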
